A study of Homo sapiens with 6 samples.

Results

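The genes described here encode the membrane and membrane skeleton of the red cell: the glycophorin genes GYPB, GYPC and GYPE, the anion exchanger gene SLC4A1, and the genes of the proteins beneath them, ANK1, SPTB, EPB41 and EPB42. They were chosen by symbol, and all 8 were found among the 31142 genes of the deposited table, each under 1 gene identifier. The table covers 6 RNA-seq libraries labelled SKM-1, a cell line from a human acute myeloid leukemia that followed myelodysplastic syndrome, all taken at 96 h. Of these, 3 samples were labelled as carrying U2AF1 with the S34F mutation and 3 as carrying wild-type (WT) U2AF1. U2AF1 is a splicing factor that binds the end of introns. Both forms were stably introduced by a lentiviral vector with a ubiquitin promoter, a carboxy-terminal FLAG tag, GFP and puromycin resistance, so they were expressed on top of the U2AF1 of the cell itself. The prefix of the WT samples in their titles is one that the study also uses for negative controls, and its methods speak of a vehicle control, so which control these samples are is not settled, and they were grouped by the WT U2AF1 in their titles.

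The red cell membrane is held in shape by a mesh of spectrin that lies under it. The mesh is tied to the membrane at separate points. Ankyrin links beta spectrin to the anion exchanger band 3, with protein 4.2 at the same site, and protein 4.1 joins spectrin to actin and to glycophorin C. Inherited loss of spectrin, ankyrin, band 3 or protein 4.2 is a known cause of hereditary spherocytosis, and loss of protein 4.1 or of glycophorin C gives elliptical cells. Most of these genes are known to rise as erythroblasts mature.

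Expression was given as FPKM, fragments mapped to a gene, divided by transcript length in kilobases and by library size, so that levels can be set side by side between genes. The libraries held an estimated 20.7 to 26 M fragments (M stands for mega). Of 12 erythroid markers, 12 reached a mean of 1 FPKM and 11 a mean of 10 FPKM, led by the embryonic and fetal globin genes HBE1 (mean 5460 FPKM) and HBG2 (2170 FPKM). Of 12 monocytic and granulocytic markers, 2 reached 1 FPKM, LYZ (15.7 FPKM) and ITGAM (2.42 FPKM), and 5 had a mean below 0.1 FPKM, among them MPO, CSF1R and S100A8. Of the megakaryocytic markers, 3 of the 6 in the table reached a mean of 1 FPKM, led by GP1BB (91.1 FPKM) and TUBB1 (6.53 FPKM), and of the lymphoid markers 1 of 5 did, with CD3D at 14.4 FPKM and NKG7 at 0.54 FPKM. Erythroid markers were thus abundant in the libraries labelled SKM-1, while several myeloid markers, though not LYZ, were near 0. The identity of the cell line was not tested and is in question, and the levels given below are those of the libraries under this label. The summed erythroid markers ranged from 12200 to 14000 FPKM in the S34F libraries and from 11800 to 12900 FPKM in the WT libraries, and the summed monocytic markers from 10.9 to 27 FPKM and from 21.1 to 23 FPKM. S34F replicate 3 stood apart, with a mean correlation to the other libraries over the tested genes of 0.9608 against 0.9746 to 0.9777 for the rest. It was most like WT replicate 3 (Pearson r = 0.9748), and tests between the groups that turn on these libraries are given with and without them. Correlations between genes are given over all 6 libraries only. The summed FPKM of U2AF1 and its near-identical copy U2AF1L5 was 18.7, 19.3 and 18.4 in the S34F replicates 1, 2 and 3 and 18.7, 18 and 16.9 in the WT replicates 1, 2 and 3, which does not tell the mutant from the wild-type form.

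None of the red cell membrane genes passed the limits of the comparison between S34F and WT cells. Of the 8 genes, 7 reached a mean of 1 FPKM and were tested with limma on log2(FPKM + 1), and EPB42 fell under that filter. A gene was called a DEG where the fold change on this scale exceeded 1.5 and the unadjusted p was under 0.05. 0 of the 7 genes were DEGs, beside 0.585% of all 10942 genes tested, 0 had an unadjusted p under 0.05, beside 2.39% of all, and 0 had an adjusted p under 0.05, which was also 0% of all. The S34F and WT values overlapped for every one of the 8 genes, while 7.38% of the tested genes had groups that did not overlap. The median of the 7 log2 differences, S34F minus WT, was -0.001 (3 above 0 and 4 below), and that of all genes tested was 0.015. Every adjusted p of these genes was 1. With 3 libraries in each group the exact permutation test cannot go below p = 0.1. The study describes triplicates and independent RNA samples but does not say whether each came from a separate transduction, so the p-values measure the spread between these samples.

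**Figure D1:**
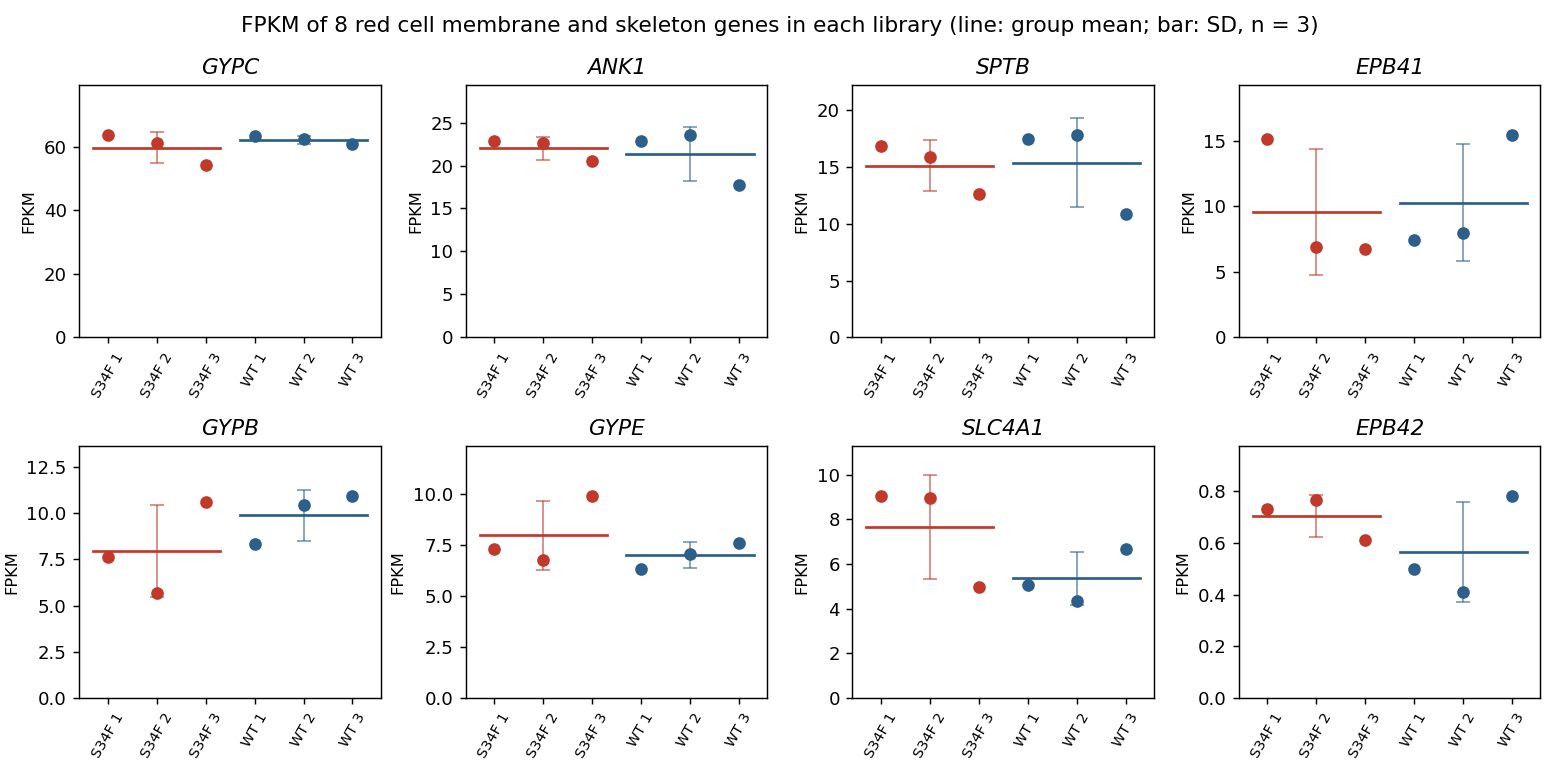
FPKM of the 8 genes, 1 panel per gene with its own linear axis from 0 and 1 point per library (S34F red, WT blue), with a line at each group mean and bars for the SD (n = 3). The genes run from GYPC (mean 60.9 FPKM) to EPB42 (0.633 FPKM), and the points of the groups overlap for each gene.

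The genes spanned a wide range of levels. GYPC, at a mean of 60.9 FPKM over the 6 libraries, was 2.81 times as high as ANK1 at 21.7 FPKM, and their values did not overlap. ANK1 was above SPTB (15.3 FPKM) in 6 of 6 libraries, although the ranges of the pair over all libraries overlapped. EPB41 (9.92 FPKM), GYPB (8.9 FPKM), GYPE (7.48 FPKM) and SLC4A1 (6.5 FPKM) followed with ratios between neighbours of 1.11 to 1.19. These neighbours overlapped and changed places between libraries, with EPB41 above GYPB in 3 of 6, GYPB above GYPE in 5 of 6 and GYPE above SLC4A1 in 4 of 6. SPTB was above EPB41 in 5 of 6 libraries. EPB42 was lowest at 0.633 FPKM, 10.3 times below SLC4A1, with no overlap. The summed level of the 8 genes was 120 to 143 FPKM, or 0.0358% to 0.0419% of all FPKM in a library.

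GYPC encodes glycophorin C, the minor sialoglycoprotein that anchors protein 4.1 and carries the Gerbich blood group (ENSG00000136732, chromosome 2, 126655933 to 126696670, forward strand, GRCh38). Its level was 63.5, 61.2 and 54.2 FPKM in S34F replicates 1, 2 and 3 and 63.3, 62.4 and 60.7 FPKM in WT replicates 1, 2 and 3. All libraries lay close together, and the lowest, S34F replicate 3, was the one that stood apart. The mean was 59.6 ± 4.87 FPKM in S34F and 62.1 ± 1.31 FPKM in WT cells (SD, n = 3 each). The log2 difference was -0.06 (SE 0.10, 95% interval -0.30 to 0.18), with p = 0.56 from limma and 0.7 from the exact permutation test. GYPC was the steadiest of the 8 genes, with a coefficient of variation of 5.7% over the 6 libraries.

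GYPB and GYPE lie near each other on chromosome 4, and GYPB encodes glycophorin B, the carrier of the S and s antigens. In GRCh38, GYPE (ENSG00000197465) lies at 143870867 to 143905563 and GYPB (ENSG00000250361) at 143996104 to 144019345, both on the reverse strand. Their coding sequences are close copies, which bears on how fragments could be divided between them, so those of GYPB and GYPE are shown here. They come from GENCODE 29 on GRCh38, without the stop codon: transcript ENST00000502664 of GYPB with 273 coding bases spread over chr4:143996302-144019287, and ENST00000437468 of GYPE with 234 coding bases over chr4:143876758-143905507, both reverse strand and read 5′ to 3′. Bases that differ, or that have no partner in the alignment, are in capitals.
GYPB: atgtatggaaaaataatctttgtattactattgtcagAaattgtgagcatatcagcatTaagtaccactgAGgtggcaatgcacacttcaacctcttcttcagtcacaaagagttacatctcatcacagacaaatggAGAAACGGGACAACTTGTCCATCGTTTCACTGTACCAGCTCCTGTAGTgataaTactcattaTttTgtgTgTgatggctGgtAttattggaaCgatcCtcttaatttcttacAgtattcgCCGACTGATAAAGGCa
GYPE: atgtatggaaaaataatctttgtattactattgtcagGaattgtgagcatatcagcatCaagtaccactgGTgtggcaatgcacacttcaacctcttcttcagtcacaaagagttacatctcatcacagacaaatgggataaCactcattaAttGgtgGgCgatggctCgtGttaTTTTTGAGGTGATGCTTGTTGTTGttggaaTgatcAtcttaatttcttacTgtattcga
Of 210 aligned bases, 196 were identical (93.3%), and 63 bases of GYPB and 24 of GYPE had no partner. Over the transcripts that the table lists for each gene, 1.09% of the 50-base stretches of GYPB were also found exactly in GYPE, and 1.15% of those of GYPE in GYPB. Stretches of 100 bases were shared in 0% of cases. The levels of both genes are uncertain to that extent, since how shared fragments were assigned is not given in the sources used here.

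GYPB was measured at 7.6, 5.68 and 10.6 FPKM in S34F replicates 1, 2 and 3 and at 8.3, 10.4 and 10.9 FPKM in WT replicates 1, 2 and 3. The lowest pair of values were S34F replicates 1 and 2, while S34F replicate 3 sat among the WT libraries. The means were 7.94 ± 2.46 and 9.86 ± 1.38 FPKM (SD, n = 3 each). The log2 difference was -0.31 (SE 0.21, 95% interval -0.82 to 0.20), with p = 0.194 from limma and 0.3 from the exact permutation test. Single libraries moved this value. Without S34F replicate 2 the log2 difference was -0.12 and the unadjusted limma p was 0.569. Without S34F replicate 3 it was -0.51, with an unadjusted p of 0.0222 and an adjusted p of 0.378 from limma, short of the fold limit and in a fit where 10.6% of all genes had an unadjusted p under 0.05.

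GYPE, whose product on the red cell surface is little characterised, was at 7.28, 6.75 and 9.89 FPKM in S34F replicates 1, 2 and 3 and at 6.32, 7.05 and 7.59 FPKM in WT replicates 1, 2 and 3. S34F replicate 3 was the highest value, and the other 5 libraries lay together. The means were 7.98 ± 1.68 and 6.99 ± 0.638 FPKM (SD, n = 3 each), with a log2 difference of 0.16 (SE 0.16, 95% interval -0.21 to 0.52, limma p = 0.349, exact permutation p = 0.5). Without S34F replicate 3 it was 0.01 and the unadjusted limma p was 0.939.

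SLC4A1 encodes band 3, which exchanges chloride for bicarbonate and is the main membrane anchor of the skeleton (ENSG00000004939, chromosome 17, 44248385 to 44268141, reverse strand). It had the largest log2 difference of the 8 genes. Its level was 9.04, 8.94 and 4.97 FPKM in S34F replicates 1, 2 and 3 and 5.06, 4.33 and 6.68 FPKM in WT replicates 1, 2 and 3. S34F replicates 1 and 2 were above every WT library, and S34F replicate 3 lay below WT replicates 1 and 3. The mean was 7.65 ± 2.32 FPKM in S34F and 5.36 ± 1.2 FPKM in WT cells (SD, n = 3 each), a ratio of 1.43. The log2 difference was 0.42 (SE 0.24, 95% interval -0.15 to 0.99), and it passed neither limit (limma p = 0.125, exact permutation p = 0.3).

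The call of SLC4A1 depended on S34F replicate 3. Without that library the log2 difference was 0.67, with an unadjusted p of 0.00799 and an adjusted p of 0.286 from limma, and SLC4A1 became a DEG together with 1.65% of the genes tested. Without both libraries numbered 3, a fit chosen after seeing the data, it was 0.81, with an unadjusted p of 0.000667 and an adjusted p of 0.108, beside 1.71% of genes past the DEG limits. With any other library left out the difference stayed positive, at 0.29 or above, and was not called. The part of the libraries numbered 3 in this result was not tested further. SLC4A1 was not the anion exchanger gene with the most RNA: SLC4A2, its relative found in most tissues, averaged 60.7 FPKM, 9.34 times the level of SLC4A1, and was the higher of the pair in 6 of 6 libraries.

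**Figure D2:**
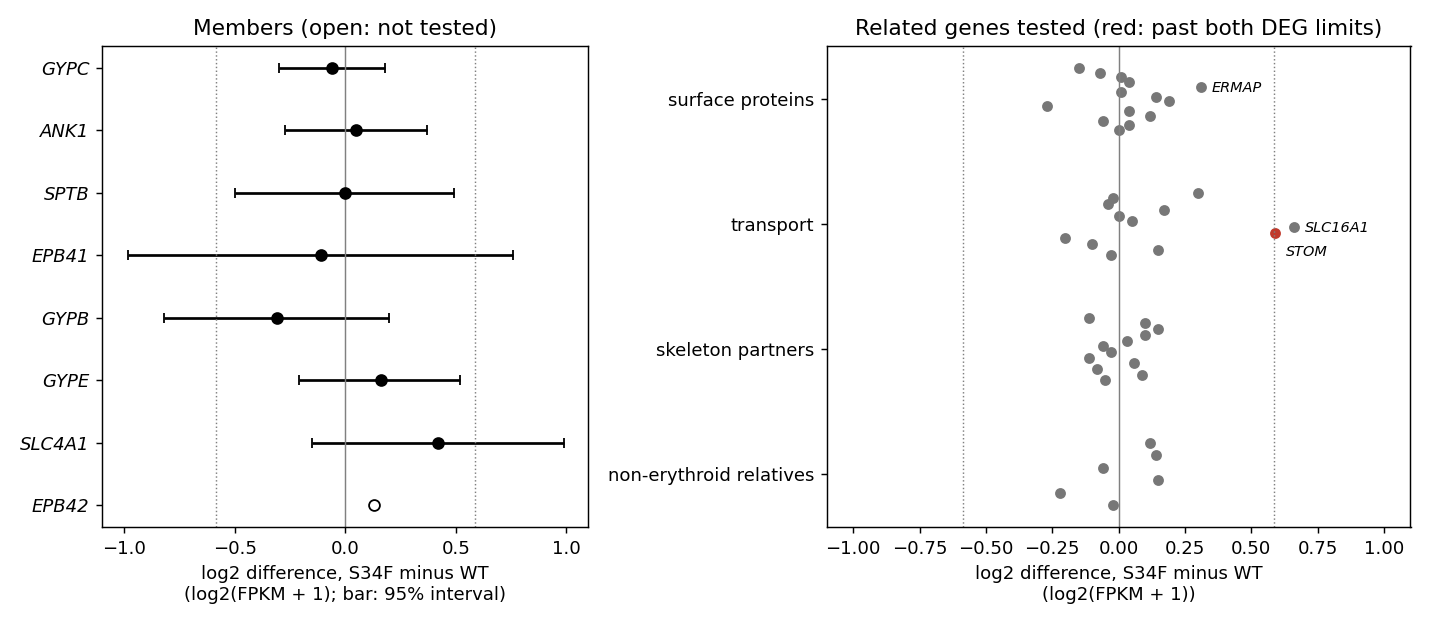
Log2 differences, S34F minus WT, on the log2(FPKM + 1) scale. The left panel has the 8 genes with 95% intervals from limma (EPB42 open, not tested), and the right panel has the tested genes of 4 related lists as points, dotted lines marking a fold change of 1.5. All 7 intervals on the left include 0, and STOM on the right is the single gene past both DEG limits.

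ANK1 encodes erythroid ankyrin, which joins band 3 to beta spectrin (ENSG00000029534, chromosome 8, 41653220 to 41896762, reverse strand). Its level was 22.9, 22.6 and 20.5 FPKM in S34F replicates 1, 2 and 3 and 22.8, 23.5 and 17.7 FPKM in WT replicates 1, 2 and 3. The libraries numbered 3 were the lowest of each group. The means were 22 ± 1.29 and 21.3 ± 3.2 FPKM (SD, n = 3 each), with a log2 difference of 0.05 (SE 0.14, 95% interval -0.27 to 0.37, limma p = 0.707, exact permutation p = 0.9). ANK1 was by far the main ankyrin gene: ANK3 averaged 0.627 FPKM, a ratio of 34.6, and ANK2 averaged 0.0377 FPKM. An antisense gene on the other strand shares 842 exon bases with ANK1, and its own mean was 0.0261 FPKM.

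EPB42 encodes protein 4.2, a relative of the transglutaminases without enzyme activity that sits at the contact of band 3 and ankyrin (ENSG00000166947, chromosome 15, 43197227 to 43221125, reverse strand). It was detected at 0.732, 0.766 and 0.611 FPKM in S34F replicates 1, 2 and 3 and at 0.501, 0.409 and 0.781 FPKM in WT replicates 1, 2 and 3. These values are above 0.0589 FPKM, the value of 3 fragments for a transcript of this length in the library with the lowest depth. A gene on the same strand, AC068724.4, shares 447 exon bases with EPB42 and has no level of its own in these data. How fragments of the shared bases were assigned is not given in the sources used here. The highest of the 6 was WT replicate 3 and the groups overlapped. The means were 0.703 ± 0.0813 and 0.563 ± 0.193 FPKM (SD, n = 3 each), and the log2 difference was 0.13, with an exact permutation p = 0.4. The transglutaminase gene TGM2 averaged 11.6 FPKM, 18.4 times the level of EPB42, and was the higher of the pair in 6 of 6 libraries.

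EPB41 encodes protein 4.1, whose pre-mRNA is known for stage-specific alternative splicing in erythroid cells (ENSG00000159023, chromosome 1, 28887091 to 29120046, forward strand, 41 annotated transcripts). FPKM sums over a gene's transcripts, so its splice forms cannot be told apart here. Its level was 15.1, 6.89 and 6.74 FPKM in S34F replicates 1, 2 and 3 and 7.43, 7.95 and 15.4 FPKM in WT replicates 1, 2 and 3. The values fell into a high pair, S34F replicate 1 and WT replicate 3, and 4 lower libraries, so that the pattern crossed the groups. The means were 9.56 ± 4.76 and 10.3 ± 4.47 FPKM (SD, n = 3 each). The log2 difference of -0.11 (SE 0.37, 95% interval -0.98 to 0.76, limma p = 0.767, exact permutation p = 0.5) therefore leaves a wide interval in either direction. The residual SD of EPB41 was above that of 96.6% of the genes tested, and its coefficient of variation was 41.8%, the largest of the 8 genes. EPB41L2, its most expressed relative among those listed, averaged 2.18 FPKM, and EPB41 was 4.55 times as high. On the opposite strand TMEM200B shares 619 exon bases with EPB41, and its mean was 0.00635 FPKM.

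SPTB encodes the beta chain of erythroid spectrin (ENSG00000070182, chromosome 14, 64746283 to 64879907, reverse strand). It was at 16.9, 15.9 and 12.6 FPKM in S34F replicates 1, 2 and 3 and at 17.5, 17.8 and 10.9 FPKM in WT replicates 1, 2 and 3. The libraries numbered 3 were again the lowest of each group. The means were 15.1 ± 2.24 and 15.4 ± 3.88 FPKM (SD, n = 3 each), and the log2 difference was -0.00 (SE 0.21, 95% interval -0.50 to 0.49, limma p = 0.996, exact permutation p = 1). SPTB shares 3408 exon bases with PLEKHG3 on the opposite strand, whose mean was 0.0139 FPKM.

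Spectrin genes of other tissues were lower than SPTB. The beta spectrin gene SPTBN1 averaged 4.6 FPKM and was below SPTB by a ratio of 3.32, in 6 of 6 libraries. SPTAN1, another spectrin gene, averaged 1.89 FPKM and reached 4.57 FPKM in S34F replicate 3. Among the genes compared here, the erythroid one was thus the higher for beta spectrin, ankyrin and protein 4.1, and the lower for band 3 and protein 4.2.

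**Figure D3:**
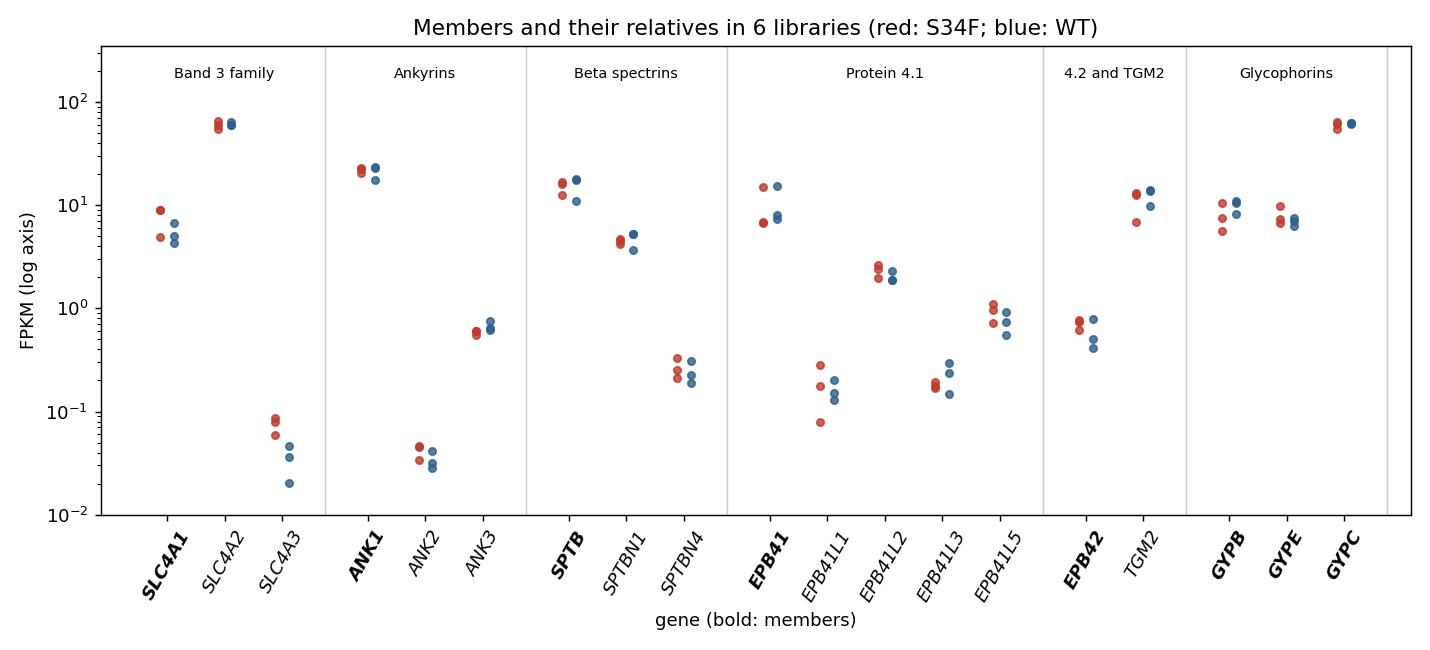
FPKM on a log axis of the red cell membrane genes (bold) beside relatives, with 1 point per library, S34F in red and WT in blue. ANK1, SPTB and EPB41 lie above their relatives, while SLC4A1 (mean 6.5 FPKM) lies below SLC4A2 (60.7 FPKM) and EPB42 (0.633 FPKM) below TGM2 (11.6 FPKM).

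Across the libraries the genes did not move as one group. SPTB and ANK1 followed each other most closely, with a Pearson r of log2(FPKM + 1) of 0.97 over the 6 libraries, and ANK1 exceeded SPTB by a ratio of 1.31 to 1.63 in each. Both were below their means only in the libraries numbered 3, SPTB by 0.24 in S34F and 0.43 in WT, and ANK1 by 0.07 and 0.27. In the other libraries SPTB was 0.08 to 0.23 and ANK1 0.06 to 0.12 above its mean. GYPC and GYPE ran in opposite directions (r = -0.92), as did GYPB and SLC4A1 (r = -0.72), and the neighbouring genes GYPB and GYPE were only loosely related (r = 0.52). In S34F replicate 3, GYPC, SPTB, EPB41 and SLC4A1 were below their mean by 0.16, 0.24, 0.42 and 0.28 on the log2 scale, while GYPB and GYPE were above it by 0.25 and 0.37. In the other libraries GYPC stayed within 0.06 of its mean, so its correlation with GYPE rests largely on S34F replicate 3. These correlations rest on 6 libraries of 2 groups and serve as a description. They were not computed without the libraries numbered 3.

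**Figure D4:**
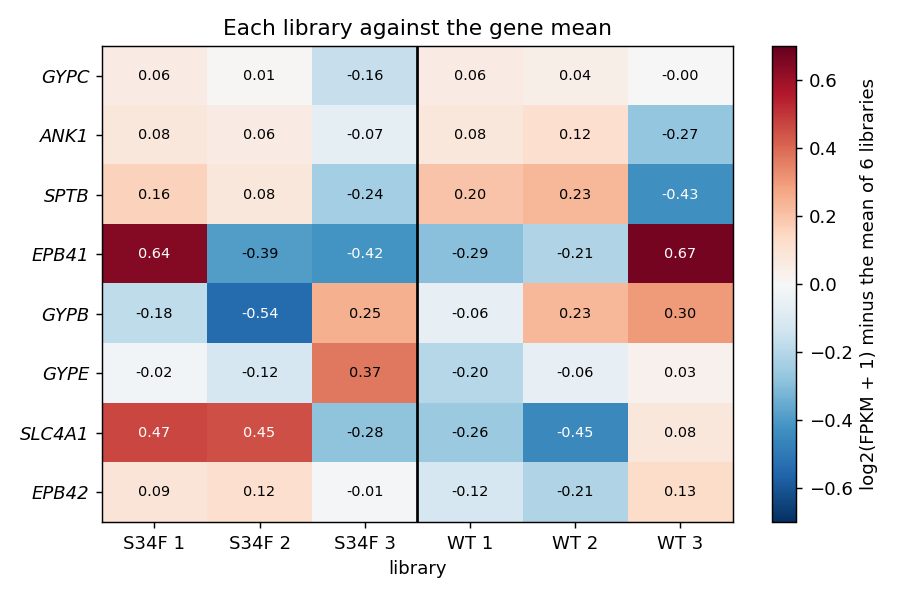
Deviation of each gene's log2(FPKM + 1) from its mean over the 6 libraries, with genes as rows, libraries as columns, and the value written in each cell. EPB41 is raised in S34F replicate 1 (0.64) and WT replicate 3 (0.67), and SLC4A1 in S34F replicates 1 and 2 (0.47 and 0.45).

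The genes whose levels followed each member most closely over the 6 libraries differed from member to member. For EPB41 these were GCHFR, STX16 and SNAPC2, each with r = 0.980, and 13 genes had r above 0.95. STX16, a membrane fusion protein of the Golgi, had the same split as EPB41, at 9.52 and 10.2 FPKM in S34F replicate 1 and WT replicate 3 and at 3.36 to 3.89 FPKM in the others. SLC4A1 was followed by ATP5F1D (r = 0.997), CDR2L (0.994) and EPN1 (0.986), with 26 genes above 0.95, and GYPB by DDX19B (0.994), SNAPC1 (0.983) and ERICH2 (0.978), with 21. GYPC had 199 such genes, led by DPP7 (0.995), CAVIN1 and PIEZO1 (0.992 each), and GYPE had 166, led by LPIN1 (0.994), ERVK3-1 and SPPL2A (0.991 each). SPTB had 230, led by AL031963 (0.995), GPATCH4 and LINC01311 (0.994 each), and ANK1 had 169, led by CU634019 (0.997), EIF1AX and DOCK8 (0.995 each). These counts were not made without the libraries numbered 3, which stood apart for several of the members.

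Among other genes of the red cell surface, none passed the DEG limits. Of 18 genes of surface proteins and blood group antigens, 14 were tested and 0 were DEGs, with a median log2 difference of 0.025. BSG, the Ok antigen that escorts monocarboxylate transporters, had the highest mean (377 FPKM), followed by RHAG, the Rh-associated glycoprotein (161 FPKM), and ICAM4, the LW antigen (52.6 FPKM). ERMAP, which carries the Scianna antigens, had an unadjusted p under the limit. Its level was 4.54, 4.35 and 5.07 FPKM in S34F replicates 1, 2 and 3 and 3.37, 3.58 and 3.7 FPKM in WT replicates 1, 2 and 3. The groups did not overlap, but the log2 difference of 0.31 (SE 0.10, limma p = 0.0196, adjusted p = 1, exact permutation p = 0.1) was below the fold limit.

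Of 14 genes of transport across the red cell membrane, 12 were tested and 1 was a DEG, with a median log2 difference of 0.025. High means were found for SLC2A1, the glucose transporter (64.2 FPKM), and PIEZO1, the mechanosensitive channel (40.9 FPKM). The DEG was STOM, which encodes stomatin, a membrane protein that binds the glucose transporter and is lost from the red cells of a form of stomatocytosis (chromosome 9, 121338988 to 121370304, reverse strand). STOM was at 26, 25.4 and 23.9 FPKM in S34F replicates 1, 2 and 3 and at 17.6, 17.9 and 13.7 FPKM in WT replicates 1, 2 and 3. Every S34F library was above every WT library, with means of 25.1 ± 1.06 and 16.4 ± 2.31 FPKM (SD, n = 3 each). The log2 difference was 0.59 (SE 0.13, 95% interval 0.29 to 0.90), with an unadjusted limma p of 0.0025, an adjusted p of 1 and p = 0.1 by exact permutation. It lay at the edge of the fold limit: the call was lost without S34F replicate 1 (0.57) and without WT replicate 3 (0.48), while the direction was kept. Without S34F replicate 3, CA2 was called beside STOM, and without WT replicate 1, SLC16A1 was.

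Of 13 partners in the skeleton, 12 were tested and 0 were DEGs, with a median log2 difference of -0.001 and the largest at 0.15. ACTB (412 FPKM), ACTG1 (236 FPKM) and the capping protein gene CAPZB (63.7 FPKM) had the highest means. Of 14 relatives of the members in other tissues, 6 were tested and 0 were DEGs, with a median of 0.051. Over the 4 lists together, 44 genes were tested and 1 was a DEG, beside the 0.585% of all genes. RNA from bulk cells does not tell a change in the number of cells from a change in the RNA of each cell, so this holds for the average over the culture.

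The regions just upstream of a RefSeq start site are shown for GYPB, GYPE, SPTB and EPB42. The first pair are near copies of each other with similar levels, and SPTB and EPB42 lie far apart in level. GATA1 is an erythroid factor that binds the GATA motif, here searched as AGATAA with its variant AGATAG, as well as TGATAA with its variant TGATAG, on both strands. Each run is the 250 bases before a start site in RefSeq on GRCh38.p14, read 5′ to 3′ on the reverse strand, the strand of all 4 genes, with the matches in capitals: GYPB at chr4:144019346-144019595, GYPE at chr4:143905560-143905809, SPTB at chr14:64879908-64880157 and EPB42 at chr15:43221019-43221268.
GYPB: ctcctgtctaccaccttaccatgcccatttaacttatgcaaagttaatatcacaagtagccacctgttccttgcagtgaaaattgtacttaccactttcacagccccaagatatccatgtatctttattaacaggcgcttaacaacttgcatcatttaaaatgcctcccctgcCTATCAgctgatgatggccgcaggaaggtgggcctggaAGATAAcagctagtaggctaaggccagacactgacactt
GYPE: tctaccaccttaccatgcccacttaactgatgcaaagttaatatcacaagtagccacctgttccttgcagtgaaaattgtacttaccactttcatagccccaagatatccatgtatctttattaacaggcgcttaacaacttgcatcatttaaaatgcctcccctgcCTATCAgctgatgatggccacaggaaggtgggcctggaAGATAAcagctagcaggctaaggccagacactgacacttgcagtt
SPTB: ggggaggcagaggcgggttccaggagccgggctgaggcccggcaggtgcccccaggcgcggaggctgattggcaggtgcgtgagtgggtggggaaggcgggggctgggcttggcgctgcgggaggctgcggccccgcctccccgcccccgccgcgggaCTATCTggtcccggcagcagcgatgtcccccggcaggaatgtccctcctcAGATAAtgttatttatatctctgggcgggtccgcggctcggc
EPB42: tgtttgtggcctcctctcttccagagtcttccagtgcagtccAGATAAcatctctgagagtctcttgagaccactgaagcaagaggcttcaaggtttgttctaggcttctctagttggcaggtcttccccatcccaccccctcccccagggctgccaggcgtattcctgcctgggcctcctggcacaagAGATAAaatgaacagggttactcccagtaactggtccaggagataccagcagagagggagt
RefSeq windows were at hand for 6 of the 8 genes, with 9 windows in all. A GATA match was found in 7 of these windows, at least 1 for each of the 6 genes. Over all genes, 22.3% of the 35116 windows of the same length held a match. The member windows are not independent, since those of GYPB overlap each other and that of GYPE is a near copy of them. The windows printed for GYPB and GYPE each hold 2 matches, and over the printed bases they were identical at 239 of 244 aligned bases (98%). EPB42, the lowest of the 8 genes, also holds 2 matches, as does SPTB, whose mean was 15.3 FPKM. The GYPE and EPB42 windows reach into the genes as GENCODE 29 places them. In EPB42 the part within the gene holds the second match. The motif CACCC, also searched on both strands, was found in 5 windows of 4 of the genes, and in 54.7% of the windows over all genes. A match of either motif describes the letters in the window and was not linked to binding or to the levels.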

How the data were processed

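The authors deposited 1 table of FPKM per gene and library, together with their own fold changes, p-values and q-values, which were not used. Its values are FPKM by the column headings although the file is named for counts: 0% of those above 0 are whole. The submitters' processing notes name StringTie and edgeR without versions, and the aligner, genome build and annotation are not given in the sources used here. Each of the 6 library columns was used.

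limma 3.58.1 in R 4.3.3 was fitted on log2(FPKM + 1) with trended variances over the 10942 genes whose mean reached 1 FPKM, with p-values adjusted by the Benjamini-Hochberg method over all of them. Fold changes are on the log2(FPKM + 1) scale, which understates the change of low genes. Each gene was also compared by a two-sided exact permutation test. The script was tested on simulated data for the 10942 genes, where 186 of 200 genes changed 2-fold had an unadjusted p under 0.05, and 5.24% of the unchanged genes did. Of the 200, 131 had an adjusted p under 0.05. The simulated noise was independent between genes and between libraries, so these rates need not hold for the real libraries, which share patterns across genes. Depth was estimated from the FPKM of single-exon genes, and limits from it cover counting error only.

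The 8 genes and the related and marker lists were chosen with earlier results of these data known. The text names the 8 genes, the 3 highest of each related list, genes past the DEG limits, fixed relatives (RHAG, SPTBN1, SPTAN1, ANK3, TGM2), the 2 highest of each marker list and, for each member tested, the 3 genes with the highest correlation. Some genes of this rule are not reported here. Other genes were named after their values were seen. Coordinates come from GENCODE 29 (GRCh38), in which 31002 of 31142 identifiers were found, and upstream sequences from RefSeq on GRCh38.p14. Near-identical copies were counted separately in the table.

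Deviations from the group means correlated, across genes, at 0.212, 0.174 and 0.38 between libraries with the same replicate number, and at 0.197 or less, and as low as -0.295, between those with different numbers. The paper mentions pairs. Between libraries numbered 1 and 2 the values were 0.134 and 0.197, the higher of which was above the 0.174 between the libraries numbered 2. Where a library numbered 3 was set against a library numbered 1 or 2, they were -0.205 to -0.295. The main fit and the permutation test did not use the numbering as a pairing. A replicate block was run as an alternative, and with it 443 of all genes had an unadjusted limma p under 0.05, against 262 in the main fit. Other alternatives were scalings, filters, pseudocounts, variance settings and each library left out. Tables and plots were made with matplotlib 3.10.9, scipy 1.17.1, pandas 2.3.3 and numpy 2.4.6 under Python 3.11.15.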

Additional observations from a re-analysis of the deposited data

How the results depend on the processing

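Under the scaling, filter, pseudocount and variance settings tried, 0 of the tested red cell membrane genes were DEGs. With each library left out in turn the count was 0 to 1, the exception being SLC4A1 without S34F replicate 3, and it was 1, again SLC4A1, without both libraries numbered 3. Over all genes, 64 were DEGs, 122 with a pseudocount of 0.1, 186 without both libraries numbered 3 and 67 to 180 with single libraries left out, the most without S34F replicate 3; the cause was not tested. Of the related genes 1 was a DEG, 0 after quantile normalization (STOM at 0.57), 0 to 2 with single libraries left out, and 1 without both libraries numbered 3, where CA2 took the place of STOM (0.51).

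The sign of small log2 differences was not stable. SPTB was at 0.00 with a pseudocount of 0.1, ANK1 at -0.02 and EPB41 at 0.37 without both libraries numbered 3. With single libraries left out GYPC ranged from -0.11 to 0.01, EPB41 from -0.46 to 0.19, SPTB from -0.22 to 0.12 and ANK1 from -0.07 to 0.13, and none of these 4 genes was called in any of the fits. SLC4A1 (0.29 to 0.67), GYPB (-0.51 to -0.12) and GYPE (0.01 to 0.25) kept their sign with single libraries left out, although GYPE was close to 0 without S34F replicate 3. With the replicate block, 0 members, 1 related gene and 87 genes in all were DEGs, and the block changed no call of the members. EPB42 entered the fit only with the lower filter or none. The sum over identifiers was not run, since 0 members have more than 1.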

Other observations

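Genes of other blood group systems were unevenly expressed. RHCE and RHD, near-identical copies that encode the Rh antigens, averaged 35.1 to 38.4 FPKM and 16.5 to 19.8 FPKM in the 2 groups, and the Kell gene KEL 21.1 to 21.8 FPKM. The Lutheran gene BCAM stayed between 0.347 and 0.591 FPKM, the Duffy gene ACKR1 between 0.108 and 0.524 FPKM and the Dombrock gene ART4 between 0.179 and 0.504 FPKM. CR1, the complement receptor of the Knops system, was at most 0.0105 FPKM, and SLC14A1, the urea transporter of the Kidd system, was listed at 0 in all libraries but WT replicate 1. These genes were chosen after their values were seen. RHD was at 23.8 and 23.3 FPKM in S34F replicates 1 and 2, at 12.2 FPKM in S34F replicate 3 and at 15.9 to 16.9 FPKM in the WT libraries, so that S34F replicate 3 lay below the WT libraries and the other S34F libraries above them. SLC4A1 had a similar order, with S34F replicates 1 and 2 on top.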
